A study of Rattus norvegicus with 6 samples.

Results

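The table of gene values from the rat kidney inner medulla holds 2720 rows whose name joins more than 1 gene with a comma, out of 27321 rows in all. They were chosen by that comma alone, without any measured value, and were taken at first as features lying between annotated genes. The positions in the table went against that reading. In 2466 of the 2720 rows every named gene also had a row of its own, and in all 2466 the stated region ran exactly from the first base of the outermost gene to the last base of the other, so it contained the genes as well as whatever lay between them. In 271 of these rows the named genes overlapped, and there was no space between them. The rows are therefore called joint rows here, rows that hold reads counted to several named genes at once, and a slash stands between the genes (Eif5a/D3ZIG5_RAT). How the counting came to give a read to several genes is not given in the sources used here. Most rows named 2 genes (2567), 153 named 3 or more, and the longest name held 5.

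RNA came from the tip of the inner medulla of male Sprague-Dawley rats aged 3 months, 3 control libraries from rats given vehicle by tail vein and 3 libraries from rats given streptozotocin (STZ) at 62.5 mg/kg, all sampled on day 15. STZ is a toxin that destroys pancreatic beta cells and makes the animal diabetic. No genetic change was present in either group, and the labels number the libraries within each group without saying that each came from 1 animal. The values are normalized counts, reads divided by a library size factor, and 1 read was worth between 0.763 and 1.11 of them. Of the principal cell markers of the collecting duct, the water channel genes Aqp2, Aqp3 and Aqp4 were each above 2000 normalized counts in every library, while Scnn1b lay between 16.02 and 45.5. Markers summed per cell type were lower in STZ without overlap for intercalated cells (354.7 to 525.9 in control and 117.5 to 185.9 in STZ) and the thick ascending limb (916.5 to 1632 and 173.7 to 538.6). The proximal tubule sum was also lower without overlap (180.4 to 306.1 and 35.6 to 89.3) but was mostly Kap. Its other marker with a row, Lrp2, overlapped between the groups (6.15 to 23.4 in control and 8.36 to 34.1 in STZ). The part of these markers in the results below was not tested. The column names carry a lane code that the 3 control libraries shared and no STZ library had, so lane and treatment cannot be told apart. Reads on the table numbered between 3412311 and 5575171 per library, and because the cDNA was amplified without molecular identifiers these reads are not independent molecules.

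A short read can touch more than 1 annotated gene in several ordinary ways. Neighbouring genes may end or begin within a few bases of each other, a small RNA gene may sit inside the intron of a host gene, and the mitochondrial genome is transcribed as long precursors in which messenger RNAs and transfer RNAs lie end to end before they are cut apart. Gene families made of near-identical copies, such as the major histocompatibility complex (named RT1 in the rat), are a further setting in which reads are hard to give to 1 gene. These settings are background and not a result of the data below, in which only uniquely mapped reads were counted.

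Sequences are shown for the small RNA genes named in joint rows, because the letters let a reader see which microRNA locus a row touches. The 165 joint rows whose mean reached 5 normalized counts (the minimum for a test) named 8 microRNA hairpins, and 5 of these matched a RefSeq mature sequence by name. The seed, bases 2 to 8 and the stretch that pairs with target messages, is in capitals. No seed was shared between different hairpins among these. Which RNA the reads in a joint row came from was not tested, and they are no measure of the mature microRNA.
rno-miR-26b-5p: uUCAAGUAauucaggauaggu
rno-miR-26b-3p: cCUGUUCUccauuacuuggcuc
rno-miR-324-5p: cGCAUCCCcuagggcauuggugu
rno-miR-324-3p: cCACUGCCccaggugcugcugg
rno-miR-147: gUGUGCGGaaaugcuucugcua
rno-miR-421-3p: aUCAACAGacauuaauuggg
rno-miR-421-5p: gGCCUCAUuaaauguuuguug
rno-miR-374-5p: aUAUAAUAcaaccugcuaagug
rno-miR-374-3p: cUUAGCACguuguauuauuauu

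Another sequence shows how near a joined pair can be. Fam162a, which encodes a mitochondrial protein induced by low oxygen, and Ccdc58 (Mix23 in RefSeq), which encodes a protein of the mitochondrial intermembrane space, point away from each other and lay 1 base apart on rn4. The RefSeq promoter window of Fam162a, 250 bases before to 50 after its start (GRCr8, plus strand, chr11:78186051-78186350), overlapped that of Mix23 by 77 bases, which are in capitals. The 300 bases held 35 CG dinucleotides, against a median of 7 over 33469 promoter windows of the same length, and 93.9% of the windows held fewer.
Fam162a promoter: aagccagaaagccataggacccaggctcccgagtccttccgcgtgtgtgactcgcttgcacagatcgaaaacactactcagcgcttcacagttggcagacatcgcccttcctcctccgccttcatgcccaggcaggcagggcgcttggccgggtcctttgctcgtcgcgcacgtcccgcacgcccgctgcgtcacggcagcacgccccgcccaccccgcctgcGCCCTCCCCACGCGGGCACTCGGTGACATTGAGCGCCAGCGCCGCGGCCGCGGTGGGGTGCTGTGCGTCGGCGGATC

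Joint rows were mostly near the floor of detection. Of the 2720, 426 had no read in any library, which at 3 reads allows little more than 3 normalized counts in a library, 1807 had a mean under 1, 322 a mean between 1 and 5, and 165 a mean of at least 5. That is 6.07% of joint rows against 54.1% of the other rows. Just inside that limit stood the row of COX1_RAT and COX2_RAT with a mean of 5.073 and D4A1D7_RAT/LOC684289 with 5.076. Just outside it stood Dalrd3/Wdr6 with 4.997 and F1LNL8_RAT/RT1-A1 with 4.990.

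Joint rows took between 1.498% and 2.41% of the reads of a library, and mitochondrial rows supplied nearly all of these. Taking the libraries in order of their number, the share was 2.41%, 1.498% and 2.39% for control and 2.29%, 1.74% and 1.94% for STZ, and values are given in that order throughout. The groups overlapped, with means of 2.10% ± 0.52 (SD, n = 3) and 1.99% ± 0.28 (two-sided exact permutation test, p = 0.8, where the smallest p possible is 0.1). Control replicate 2 had the lowest share, and without it the difference was -0.41 percentage points instead of -0.10. The sign of this difference also turned in several other settings, given in the closing section. Outside the mitochondrial genome joint rows were rare and took a nearly constant share, between 0.116% and 0.123% of nuclear reads in every library (0.119% ± 0.0038 in control and 0.119% ± 0.0036 in STZ, n = 3 each, exact permutation p = 1).

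**Figure D1:**
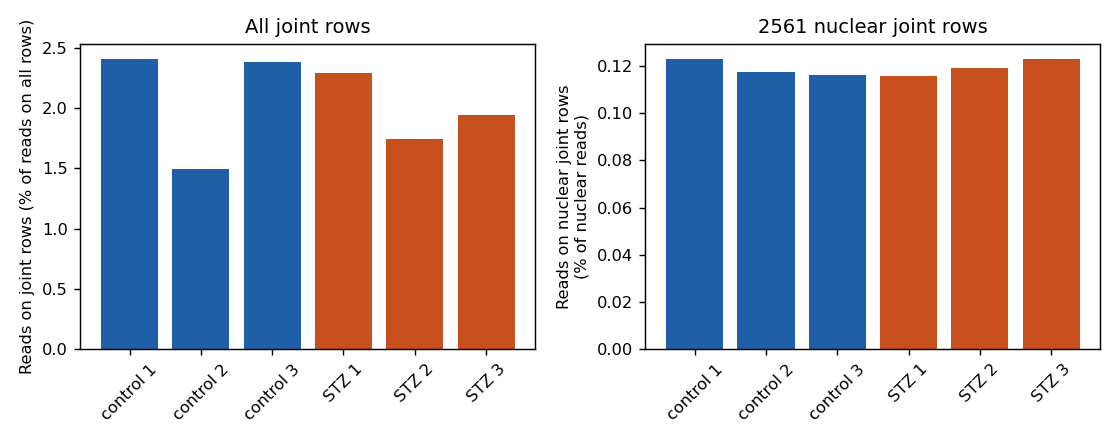
Reads on joint rows in each library (blue, control; orange, STZ), as a percentage of all reads on the left and, for nuclear rows only, as a percentage of nuclear reads on the right; each bar is 1 library. The left bars run from 1.498% to 2.41% with the groups overlapping, and the right bars all lie between 0.116% and 0.123%.

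Among nuclear joint rows, the share that reached a mean of 5 was highest where the genes lay under 100 bases apart. Beyond that it did not fall steadily with distance. Where the genes were separate, the space between them had a median of 29229 bases and reached 1361113. Rows whose genes lay under 100 bases apart were few (109) but 15 of them (13.8%) reached a mean of 5. The 109 rows held 24.8% of the reads on nuclear joint rows with a known distance. Most of their 7306 reads were in Eif5a/D3ZIG5_RAT (3226) and Fam162a/Ccdc58 (2039). The share reaching a mean of 5 was 6.27% of the overlapping rows, 4.21% from 100 to under 1000 bases and 5.53% from 1000 to under 10000. From 10000 to under 100000 bases 38 of 669 rows (5.68%) did, and the rows of this class held 35.4% of the reads. At 100000 bases or more 14 of 664 rows (2.11%) did. In 949 of the 2061 nuclear pairs that lay apart, at least 1 other annotated row stood between the named genes, so the genes of a joint row need not be neighbours. Those pairs reached a mean of 5 in 3.16% of rows, against 5.94% where nothing stood between.

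**Figure D2:**
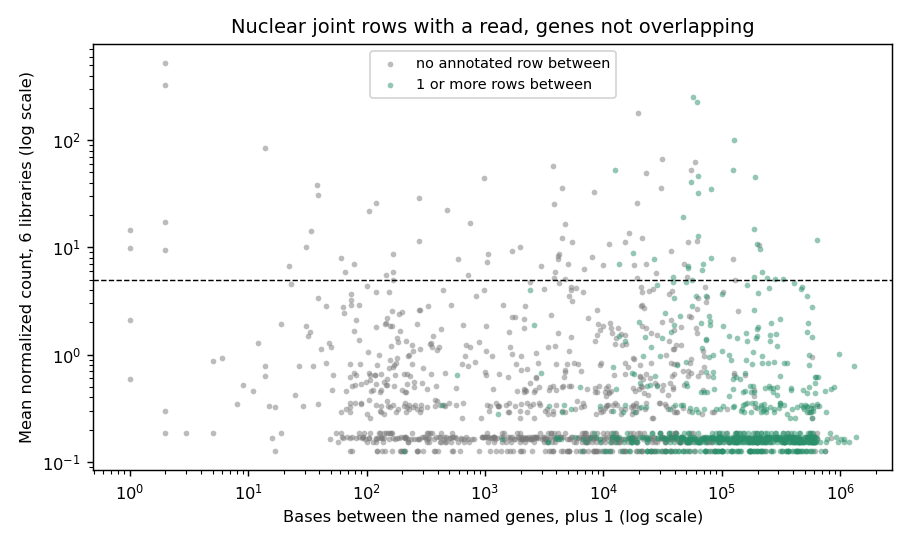
Each point is a nuclear joint row with a read whose genes do not overlap; the x axis is the number of bases between the genes plus 1 and the y axis the mean normalized count over 6 libraries, both on log scales, with a dashed line at 5. Rows above the line stand at distances from a few bases to over 100000, and green points, with another annotated row between the genes, lie mostly at the right.

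Length of the region was weakly related to level and change. Over the 122 tested nuclear rows, Spearman's rho between level and region length was 0.05, and over the 2142 nuclear joint rows with a read it was -0.24. Between log2 fold change and length rho was 0.06 over the 122 rows and 0.11 over all 13486 rows tested. These are descriptions across rows that share libraries and often share genes. The longest tested row was RT1-T24-4/RT1-CE10, a pair of class I histocompatibility genes with 642408 bases from end to end, and its values of 8.201, 7.63 and 11.1 in control and 8.36, 10.9 and 24.1 in STZ overlapped. Bcas3/F1M807_RAT, with 460128 bases, read 10.2, 14.5 and 6.68 in control and 4.64, 12.9 and 9.03 in STZ, again with overlap. With joint rows cut by region length into 3 equal classes, 97 of 907 short rows, 46 of 906 middle rows and 22 of 907 long rows were tested, and the 2 rows called below fell 1 in the middle and 1 in the long class.

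The highest joint rows were mitochondrial. The row of ENSRNOG00000029070 with the merged genes of COX3, ATP8 and ATP6, which encode a cytochrome oxidase subunit and a pair of ATP synthase subunits, read 40890, 21840 and 35974 normalized counts in control and 42469, 30558 and 26803 in STZ (chrM:7693-9382). COX2_RAT/ENSRNOG00000031685, at a further oxidase subunit, read 33023, 18001 and 26069 in control and 36556, 24910 and 26183 in STZ. The groups overlapped in both rows, and their log2 fold changes of 0.04 and 0.21 turned negative under quantile normalization. Per kilobase of region they also led, with 36463 normalized counts for the COX2_RAT row and 19579 for the COX3 row, against 170.9 for Eif5a/D3ZIG5_RAT, the highest nuclear row on that scale.

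None of the other high mitochondrial rows passed the test. CYB_RAT/ENSRNOG00000032997, at cytochrome b of respiratory complex III, read 9501, 5914 and 8271 in control and 6551, 5782 and 5689 in STZ. The row of NU4LM_RAT and NU4M_RAT, subunits of complex I, with ENSRNOG00000032320 read 6644, 3244 and 4199 in control and 3665, 2305 and 2664 in STZ (log2 fold change -0.67, limma adjusted p = 0.30). In both rows control replicate 2 lay below the highest STZ library, so the groups overlapped. The row of ENSRNOG00000030339 and ENSRNOG00000029145, the shortest tested at 136 bases, read 787.3, 505.7 and 601.1 in control against 469.8, 302.7 and 384.5 in STZ, and here every STZ library lay below every control library (log2 fold change -0.71, SE 0.23, limma adjusted p = 0.15). The row of ENSRNOG00000029171 and ENSRNOG00000043866 had a log2 fold change of 0.27 and stood apart in 1 library, with 1606 in STZ replicate 3 and between 155.3 and 906.3 in the others.

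Another 3 mitochondrial rows overlapped between the groups. The merged NU1M_RAT row, another complex I subunit, with ENSRNOG00000032112 read 9199, 4903 and 6865 in control and 5936, 4424 and 4859 in STZ. The COX1_RAT row with ENSRNOG00000029954, at the largest oxidase subunit, read 7285, 3463 and 3329 in control and 4278, 2814 and 3368 in STZ. ENSRNOG00000031333/ENSRNOG00000029954, the second shortest at 137 bases, read 3.08, 6.86 and 16.7 in control and 11.1, 16.8 and 16.1 in STZ.

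A separate kind of mitochondrial row joined genes that do not touch. In 49 rows each named gene had its own row and the genes lay at least 100 bases apart, and 9 of these were tested. Chosen after their values were seen, the 49 rows together held 125, 81 and 92 reads in control and 495, 97 and 202 in STZ. Scaled to the mitochondrial reads of each library they stood at 366.4, 227.7 and 349.3 reads per 1000000 in control and 1405, 386.8 and 808.7 in STZ, so every STZ library lay above every control library and STZ replicate 1 was highest. As a share of all reads the groups overlapped, at 26.8, 14.5 and 27.0 reads per 1000000 in control and 98.7, 21.7 and 51.0 in STZ.

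The clearest of these joined the COX3, ATP8 and ATP6 genes to the merged row that holds NU1M_RAT, a subunit of complex I, 3926 bases away (chrM:2740-9382). It read 13.3, 2.29 and 7.79 normalized counts in control and 86.4, 20.8 and 38.1 in STZ, with no overlap (log2 fold change 2.50, SE 0.60, limma adjusted p = 0.063, which missed the threshold). Over 19 alternatives the adjusted p ran from 0.0018 to 0.22 and was under 0.05 in 3 of them. Set against the sum of its genes' own rows, it was the only 1 of 133 joint rows whose ratio passed the test (0.752% of ratios called, log2 change of the ratio 2.66, SE 0.50, limma adjusted p = 0.0071). This p was adjusted over the 133 ratios and not over 13486 rows, and 13 ratios had an unadjusted p under 0.05. That call was lost without the intensity trend and without control replicate 2, STZ replicate 1 or STZ replicate 3, each of which left 0 ratios called (between 5 and 13 at an unadjusted p under 0.05). Its genes' own rows overlapped between the groups, at 105442, 88396 and 84534 against 104747, 74620 and 76719 for the COX3 row. A row that joined the COX3 genes to NU2M_RAT, also of complex I, read 4.10, 2.29 and 4.45 in control and 37.1, 6.92 and 11.04 in STZ (limma adjusted p = 0.22).

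Among nuclear rows the highest was Eif5a/D3ZIG5_RAT (chr10:56761009-56764048), which joins the gene of translation factor eIF5A to a gene model 1 base away. It read 626.4, 414.2 and 486.4 in control and 527.4, 616.2 and 445.7 in STZ. Fam162a/Ccdc58 (chr11:66497108-66546302), the head-to-head pair shown above, read 525.9, 299.0 and 261.6 in control and 377.9, 228.5 and 262.0 in STZ. Neither differed beyond the spread between libraries (log2 fold changes 0.07, SE 0.21, and -0.29, SE 0.28). Cdh16/LOC100365194, at the kidney cadherin gene, read 345.5, 186.9 and 238.2 in control and 281.3, 213.6 and 238.9 in STZ, although 56638 bases and 2 other rows lay between its genes.

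Orientation could be read from RefSeq for 737 nuclear pairs, 362 on the same strand, 216 convergent and 159 divergent. The tested ones numbered 21, 6 and 3. Convergent pairs included Nab2/Stat6, genes of an EGR co-repressor and of the interleukin-4 response factor, whose ends lay 37 bases apart. It read 31.8, 51.1 and 39.0 in control and 39.9, 38.6 and 29.1 in STZ, and the groups overlapped. Divergent Gstcd/Ints12, the latter a subunit of the Integrator complex, read 62.5, 35.8 and 34.5 in control against 28.8, 25.7 and 26.1 in STZ, without overlap but also without passing the test (limma adjusted p = 0.33).

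In the STZ comparison 2 of the 165 tested joint rows passed, both higher in STZ, against 2.1% of all 13486 rows (1.17% higher and 0.927% lower). Over the 165 the median log2 fold change was 0.02, beside 0.01 over all rows. At an unadjusted p under 0.05 there were 23 of the 165, against 14.7% of all rows. The groups did not overlap in 27 rows (16.4%), 13 higher and 14 lower, against 20.3% of all rows (10.1% higher and 10.3% lower), so the shares for joint rows were near those of all rows.

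Both calls lay in a cluster of Ly6 genes on chromosome 7, which encode small surface proteins anchored by a lipid. Ly6b/RGD1565410 (chr7:113306011-113373701; Ly6i and Ly6cl1 in RefSeq) read 45.1, 20.6 and 7.79 in control and 96.6, 108.8 and 96.4 in STZ. The lowest STZ library was above the highest control library, and control replicate 3 was lowest of all. Control averaged 24.5 ± 19.0 and STZ 100.6 ± 7.1 (SD, n = 3 in each group), which is a log2 fold change of 2.299 (SE 0.47, limma adjusted p = 0.035).

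LOC300024/RGD1565410 (chr7:113242198-113373701) did not overlap between the groups either, and control replicate 3 was again lowest. It read 80.0, 48.8 and 21.1 in control and 169.9, 120.7 and 162.6 in STZ, means of 49.98 ± 29.4 and 151.1 ± 26.6, a log2 fold change of 1.75 (SE 0.39, limma adjusted p = 0.048). Leaving out control replicate 2, STZ replicate 1, STZ replicate 2 or STZ replicate 3 ended both calls, as did a fit without the intensity trend. The adjusted p over those 4 settings ran from 0.067 to 0.13 for Ly6b/RGD1565410 and from 0.098 to 0.154 for LOC300024/RGD1565410. Over all 19 alternatives it ran from 3.6e-04 to 0.18 for the first row and from 0.0015 to 0.21 for the second, and the log2 fold change stayed positive in each.

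What both rows share is RGD1565410, whose own row also rose. It read 668.4, 476.7 and 345.1 in control and 2562, 1985 and 3140 in STZ (log2 fold change 2.39, SE 0.26, limma adjusted p = 0.0014). Their other genes did not pass, with log2 fold changes of 1.17 for Ly6b (adjusted p = 0.15) and 0.80 for LOC300024 (adjusted p = 0.20). Set against the sum of their genes' own rows, the 2 joint rows did not pass, with ratio changes of 0.18 (SE 0.39) and -0.54 (SE 0.33) on the log2 scale.

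The cluster held more joint rows than these. Of 25 that name Ly6b, Ly6c, LOC300024, RGD1565410 or D3ZPQ1_RAT, 8 were tested, and their log2 fold changes ran from 0.21 to 2.299 with a median of 1.19. These rows were gathered after their values were seen, and they share genes, so they are not 8 separate observations. The 3-gene row Ly6b/LOC300024/RGD1565410 read 6.15, 3.05 and 2.23 in control and 11.1, 22.7 and 24.1 in STZ (limma adjusted p = 0.080). Every STZ library was above every control library in 5 of the 8, where 10.1% of all rows tested were higher without overlap. Of the 5, 1 row, Ly6b/LOC300024/D3ZPQ1_RAT, does not name RGD1565410 (6.15, 8.39 and 1.11 in control and 12.1, 8.90 and 10.04 in STZ). The highest of the 8, D3ZPQ1_RAT/RGD1565410, overlapped, with 243.0, 229.6 and 55.7 in control and 289.7, 208.7 and 339.3 in STZ (limma adjusted p = 0.41). Ly6b/D3ZPQ1_RAT and LOC300024/D3ZPQ1_RAT overlapped too. The own row of D3ZPQ1_RAT was also higher in STZ, without overlap, but did not pass. It read 14236, 12051 and 6953 in control and 27539, 18960 and 22114 in STZ (log2 fold change 1.09, limma adjusted p = 0.11). Both urothelial markers measured, Upk1b and Upk3a, were higher in STZ without overlap, summing to between 48.8 and 87.9 normalized counts in control and between 390.9 and 452.0 in STZ, and their part in the Ly6 rows was not tested. In whole tissue, more cells of a type and more RNA per cell cannot be told apart.

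**Figure D3:**
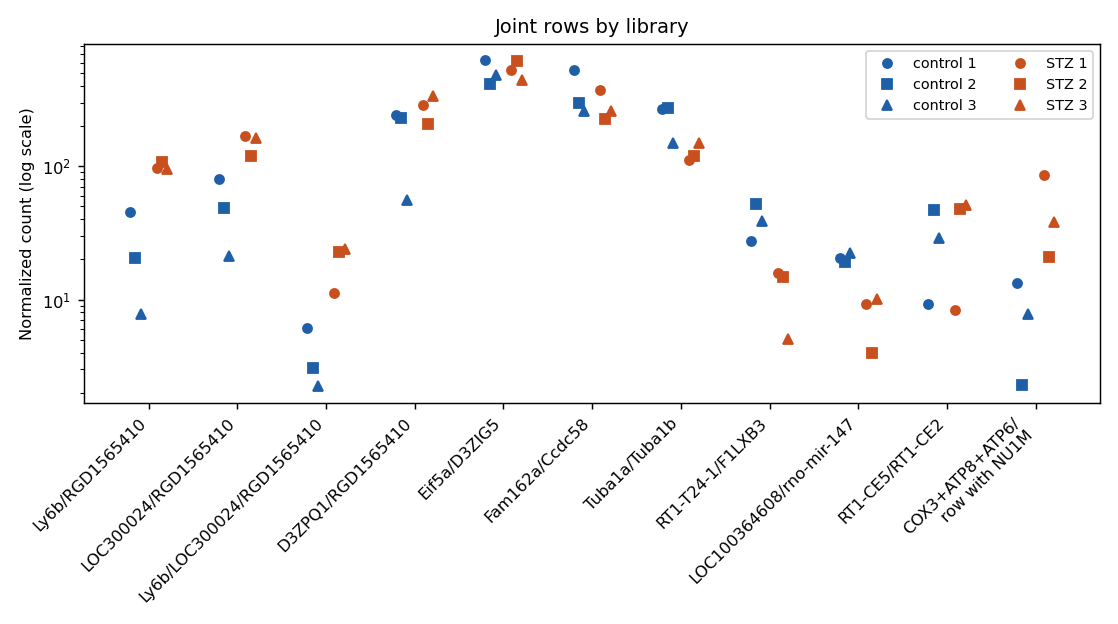
Normalized count (log scale) of 11 joint rows in each of the 6 libraries (blue, control; orange, STZ; circle, square and triangle for replicates 1, 2 and 3). The first 3 rows, all with RGD1565410, have every STZ library above every control library, and RT1-T24-1/F1LXB3 and the row with rno-mir-147 have every STZ library below.

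RT1 genes, which present peptides to T cells, gave 92 nuclear joint rows, of which 14 were tested and none passed (log2 fold changes from -1.75 to 1.28, unadjusted p under 0.05 in 1). Over all rows 2.1% passed and 14.7% had an unadjusted p under 0.05. RT1-T24-1/F1LXB3_RAT (chr20:2884354-2922971) read 27.7, 52.6 and 39.0 in control and 15.8, 14.8 and 5.02 in STZ, with no overlap. Its log2 fold change of -1.75 (SE 0.44) missed the threshold with a limma adjusted p of 0.071, which ran from 0.019 to 0.31 over the alternatives. The own row of RT1-T24-1 did pass, with 94.3, 97.6 and 104.6 in control and 42.7, 31.7 and 30.1 in STZ (log2 fold change -1.49, limma adjusted p = 0.0087).

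The summed reads of the RT1 rows varied more within the groups than between their means. Together the 92 rows took 45.9, 142.1 and 107.6 reads per 1000000 in control and 59.6, 133.8 and 137.5 in STZ, so replicate 1 was lowest in both groups. The leukocyte markers Ptprc, Cd68 and Cd74, whose sum is mostly Cd74, were also lowest in replicate 1 of each group when summed, with 437.7, 2442 and 1725 normalized counts in control and 1268, 2331 and 2494 in STZ. Cd68 by itself was lowest in control replicate 3 and STZ replicate 2, and the part of these markers in the RT1 rows was not tested. RT1-CE5/RT1-CE2 was the only joint row that differed by replicate number (F test of limma, adjusted p = 0.048), against 0.615% of all rows. It read 9.23, 47.3 and 28.9 in control and 8.36, 47.5 and 51.2 in STZ. The labels tie no replicate number to a shared animal or batch, and 37 of the 165 joint rows had an unadjusted p under 0.05 for the number, 22.4% against 17.4% of all rows. With a pseudocount of 5, a minimum mean of 20 or edgeR, 0 joint rows differed by number (38, 18 and 42 at an unadjusted p under 0.05).

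Small RNA genes were named in 285 joint rows, and 18 were tested with none called by limma (4 at an unadjusted p under 0.05), 2 without overlap higher and 3 lower. Over all rows 2.1% were called, 14.7% had an unadjusted p under 0.05, and 10.1% were higher and 10.3% lower without overlap. LOC100364608/rno-mir-147 (chr3:109610082-109612717), whose genes lay 33 bases apart, read 20.5, 19.1 and 22.3 in control and 9.29, 3.96 and 10.04 in STZ. The groups did not overlap, with means of 20.6 ± 1.6 in control and 7.76 ± 3.3 in STZ (SD, n = 3 in each group). The limma adjusted p was 0.15 (log2 fold change -1.39, SE 0.43). Acadvl/rno-mir-324, at the gene of very long chain acyl-CoA dehydrogenase, went the other way with 11.3, 6.86 and 12.2 in control and 18.6, 18.8 and 21.1 in STZ (limma adjusted p = 0.28).

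The other microRNA rows overlapped between the groups. Ctdsp1/rno-mir-26b, at the gene of a phosphatase of RNA polymerase II that hosts the hairpin, read 57.4, 14.5 and 55.7 in control and 70.6, 64.3 and 40.2 in STZ. The row rno-mir-421/rno-mir-374 on the X chromosome, with 77 bases between its hairpins, read 11.3, 1.53 and 15.6 in control and 3.71, 2.97 and 7.03 in STZ. The hairpins rno-mir-126 and rno-mir-220 were also in tested rows. Among nucleolar RNA rows, Tpt1/SNORA31, at the gene of translationally controlled tumour protein, read 18.5, 6.86 and 24.5 in control and 35.3, 65.3 and 21.1 in STZ (limma adjusted p = 0.26).

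Grouped by the other kinds of name, few or no rows were called. Ribosomal protein genes, taken as symbols that begin with Rpl or Rps, were in 85 joint rows and 4 were tested. That rule leaves out RL7A_RAT, which a further tested row names. Solute carriers were in 46 and 1 was tested, and olfactory or vomeronasal receptors were in 90 and none was tested. Rows with a model name (such as LOC, RGD, ENSRNOG or an ending in _RAT) numbered 1390 with 113 tested and 2 called, against 2.1% of all rows. This kind took in the mitochondrial rows and those naming RGD1565410, so it is not a class of unknown genes. Rows with gene symbols only numbered 1100 with 39 tested and 0 called (2 at an unadjusted p under 0.05, against 14.7% of all rows). Tuba1a/Tuba1b, a pair of alpha tubulins, was the highest same-family row with 268.6, 274.6 and 149.2 in control and 112.4, 119.7 and 150.6 in STZ (limma adjusted p = 0.15), and control replicate 3 lay among the STZ values. It passed without that library, when 3 joint rows in place of 2 were called.

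The lowest log2 fold changes among rows without overlap, after the RT1 row, belonged to rows of few reads. Pdcl/LOC690155, at the phosducin-like gene, read 9.23, 9.92 and 5.57 in control and 3.71, 1.98 and 1.004 in STZ (log2 fold change -1.57, SE 0.72). Trappc6b/F1M1P2_RAT, at a gene of the vesicle tethering complex TRAPP, read 8.201, 11.4 and 12.2 in control and 1.86, 4.95 and 3.01 in STZ. Cr1l/MCP_RAT, a pair of complement regulators, read 8.201, 7.63 and 12.2 in control and 3.71, 4.95 and 1.004 in STZ. None passed the test, with limma adjusted p-values of 0.34, 0.26 and 0.37.

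Joint rows and the genes they name tended to move the same way. For those 133 tested rows with an own row for every gene, the log2 fold change of the joint row and that of its genes' summed rows had a Spearman's rho of 0.50, and 0.60 over the 118 nuclear ones, a description across rows that share libraries and genes. The signs matched in 87 of 133. Level followed less closely, with rho of 0.24 between a joint row and the lower of its genes and 0.20 for the higher. The median joint row reached 31.9% of its lower gene and 1.76% of the genes' sum. In 39 of the 133 the joint row was above its lower gene, and in 1 above both.

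**Figure D4:**
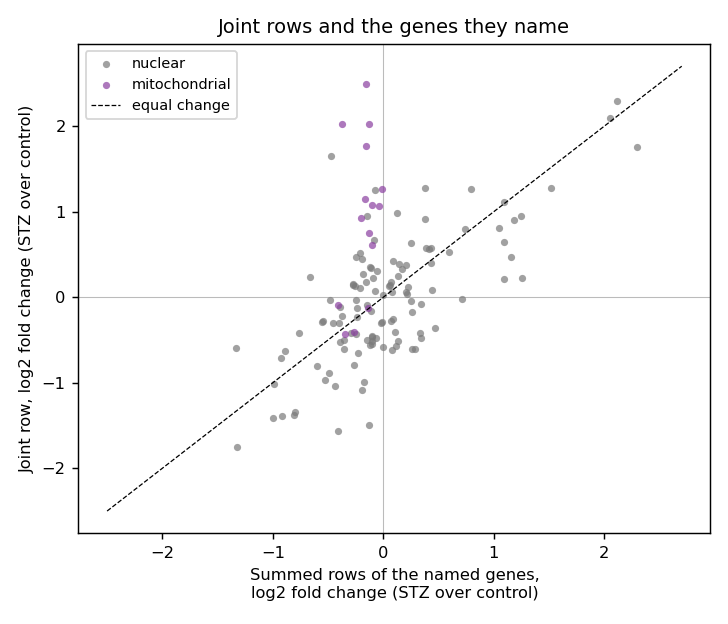
Log2 fold change of each of 133 joint rows (y axis) against that of the summed own rows of its genes (x axis), grey for nuclear and purple for mitochondrial rows, with a dashed line of equal change. Nuclear points scatter about the line, the Ly6 rows lying at the upper right, while several mitochondrial points stand high on the y axis with x near 0.

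For some genes most of the reads, own and joint together, were in joint rows. Each joint read was counted in full for every gene its row names, so it enters the share of more than 1 gene. The same 3226 reads of Eif5a/D3ZIG5_RAT gave 81.2% for D3ZIG5_RAT and 26.4% for Eif5a. Which gene such reads came from was not tested. Joint reads touched 3263 genes, and of the 2094 with at least 120 reads over the 6 libraries (own and joint), 108 had over 10% and 22 over 50% of them in joint rows, with a median of 0.205%. COX2_RAT had 62.1% of its reads there (52.0% to 65.8% over libraries), Ccdc58 66.3% (60.6% to 70.1%), D3ZIG5_RAT 81.2% (78.1% to 85.0%) and LOC100365194 96.0% (92.3% to 98.3%). LOC300024 had 71.5%, and RT1-CE4 79.6% spread over 13 joint rows. RT1-T24-4 was in 25 joint rows, more than any other nuclear gene, yet they held 6.77% of its reads.

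**Figure D5:**
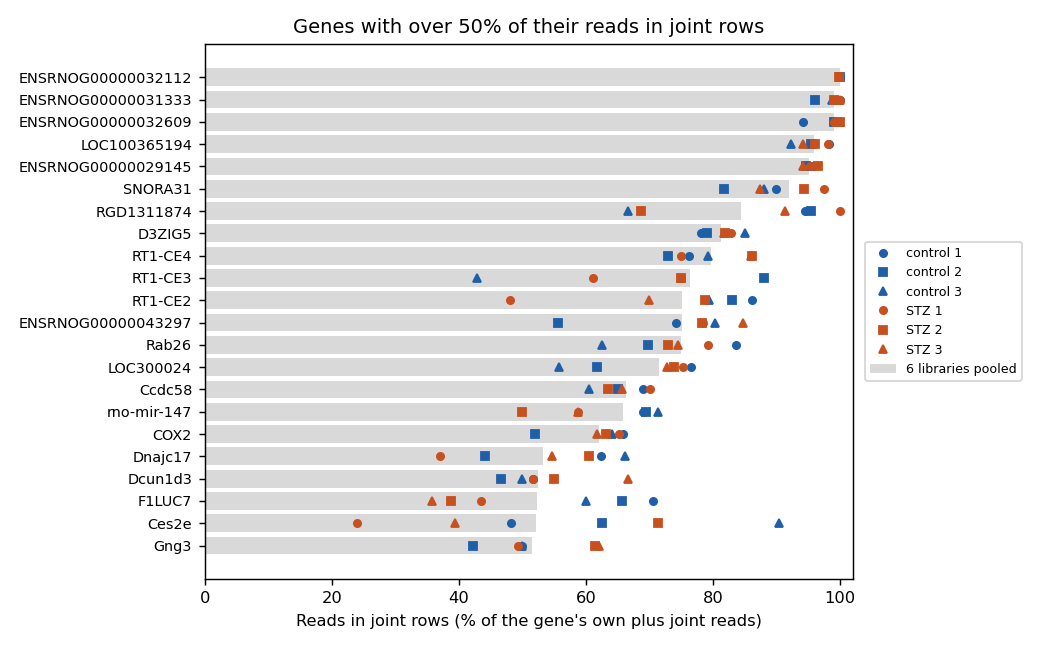
The 22 genes with over 50% of their reads in joint rows; the x axis is joint reads as a percentage of the gene's own plus joint reads, grey bars pool the 6 libraries and points are single libraries (blue, control; orange, STZ). LOC100365194 stays between 92.3% and 98.3%, whereas genes of few reads, such as Ces2e, spread widely. A joint read counts in full for every gene its row names.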

How the data were processed

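Total RNA of the inner medulla tip was made into cDNA with a PCR kit and sequenced on a HiSeq2000. The authors aligned reads to rn4 with STAR 2.3.1t, counted uniquely mapped reads by the Ensembl RGSC3.4 annotation and divided them by DESeq 1.16.0 size factors. The deposited signal is this normalized count. Which program counted them, and whether by strand, is not given in the sources used here. All values were whole multiples of 1 step per library, which gave back whole reads. Deposited starts count from 0 (113 of 121 microRNA hairpins had the RefSeq length only after adding 1), and positions are printed from 1.

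Rows with a mean of at least 5 were compared on the scale log2(normalized count + 1) by limma (3.58.1, R 4.3.3), its prior variance following intensity, with Benjamini-Hochberg adjustment over 13486 rows, at a threshold of 0.05. Fold changes on that scale understate the change of low rows. edgeR 4.0.16 and DESeq2 1.42.0 ran on the recovered reads. The ratio of a joint row to the sum of its genes' rows and a replicate number term were tested with limma too. Adjustment was over the 133 ratios for the first and over 13486 rows for the second. Tables and figures used Python 3.11.15. Scripts were tested on simulated data. Rows are named if they were called, among the 8 highest, the 5 highest per kilobase, the 4 highest or 4 lowest fold changes without overlap, the 2 longest or shortest, or nearest the minimum. Other rows, and the Ly6, RT1 and distant mitochondrial groupings, were chosen after values were seen. Members and lists were chosen with earlier results of these data known. P-values measure only the spread between these libraries, which may be technical, since the labels do not say that each came from a separate animal.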

Additional observations from a re-analysis of the deposited data

How the results depend on the processing

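The count of joint rows called, 2, was 1 with a pseudocount of 0.5, 4 with no filter, 5 with DESeq2, 0 without limma's trend (27 at an unadjusted p under 0.05) and between 0 and 3 with a library left out. It stayed 2 with edgeR, a pseudocount of 5, minimum means of 1 and 20 and each other scaling, the nuclear one chosen after seeing the data. The share of all rows called in these settings is not given here. The counts therefore do not tell whether joint rows differ from other rows. The ratio count, 1, was 0 without the trend (13 at an unadjusted p under 0.05) and between 0 and 3 with a library left out. The replicate number count, 1, was 0 with a pseudocount of 5, a minimum mean of 20 or edgeR (18 joint rows at an unadjusted p under 0.05 with the minimum of 20) and 2 with equal totals.

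The difference in the share of reads, -0.10 percentage points, turned to 0.0047 without the 10 highest rows, to 0.11 as a median log2 level, to 0.00030 for nuclear and 2.20 for mitochondrial rows (both chosen after seeing the data), and ran from -0.41 to 0.052 with a library left out. Among 23 named rows, signs turned under quantile normalization for the COX3 row (-0.080) and the COX2_RAT row (-0.018), and under equal nuclear totals for the COX3 row (-0.0042). With a library left out, log2 fold changes ran from -0.23 to 0.22 for the COX3 row, -0.028 to 0.41 for the COX2_RAT row, -0.55 to 0.017 for the COX1_RAT row, -0.66 to 1.02 for ENSRNOG00000029171/ENSRNOG00000043866, -0.072 to 0.23 for Eif5a/D3ZIG5_RAT and -0.55 to 0.10 for Bcas3/F1M807_RAT. The cause was not tested.

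Control and STZ libraries carry the same replicate numbers. The correlation of deviations from the mean of each group, between libraries of 1 number, was 0.395, -0.061 and 0.323 across 9315 rows, so the numbers were not taken as pairs. With the replicate number as a block in limma, 7 of the 165 joint rows and 2 of the 133 ratios were called (39 and 22 at an unadjusted p under 0.05). The share of all rows called with the block is not given here, so these counts cannot be set against it. The paired exact permutation test of the share of reads gave p = 0.75. Control replicate 1 and STZ replicate 1 correlated best with each other, as did the libraries numbered 3, and control replicate 2 did not with STZ replicate 2. At a mean of 5, a row rests on about 5 reads a library, which limits all low rows.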

Other observations

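A reading chosen after seeing the data gave the reads of a joint row back to every gene it names. It covered the 2466 joint rows in which every named gene had a row of its own. The other 254 were left out, among them the highest joint rows, such as COX2_RAT/ENSRNOG00000031685 and the row of ENSRNOG00000029070 with COX3. Within that limit the STZ comparison stayed nearly as it was: 283 rows of single or merged genes were called without these joint reads, 282 with them, and 282 were shared. The call lost was LOC691418, named with Dnajc17, whose log2 fold change went from -1.31 (limma adjusted p = 0.040) to -1.05 (adjusted p = 0.087). No gene was gained, though 58 more rows reached a mean of 5. The mitochondrial gene ENSRNOG00000032112 went from a mean of 3.09 to 6074 normalized counts, and RGD1311874 (Rec114, a gene of meiotic recombination) from 3.39 to 20.8.

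Log2 fold changes moved by over 0.25 in 36 of the 2509 rows compared that were given joint reads. RT1-CE2 went from 1.49 to 0.67, rno-mir-147 from -0.56 to -1.13, LOC300024 from 0.80 to 1.19 and RGD1565410 from 2.39 to 2.11. Of these, RGD1565410 passed the test in both readings and the others in neither.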
